A study of Homo sapiens with 16 samples.

Results

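The hexosamine pathway turns a small part of a cell's glucose, together with glutamine, acetyl-CoA and a uridine nucleotide, into UDP-GlcNAc, the sugar donor for N-glycans, for glycosaminoglycans and for O-GlcNAc, a single sugar placed on serines and threonines of nuclear and cytosolic proteins. Because several nutrients feed it, the pathway is often described as a sensor of nutrient supply, and O-GlcNAc is known to be raised in many cancers. The 8 genes described here cover the route: GFPT1 and GFPT2, the paired enzymes of the first and rate-limiting step; GNPNAT1, PGM3 and UAP1, the acetylation, mutase and final uridylylation steps; NAGK, the kinase that salvages free GlcNAc; and OGT and OGA, the transferase that adds O-GlcNAc and the hydrolase that removes it. The list was set by gene name, with earlier results of these data known, and all 8 were found among the 18332 genes of the table. All 8 passed the filter on low values in each line.

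The samples were 2 established human breast cancer lines that lack the estrogen receptor, MDA-MB-231 and MDA-MB-468, each exposed over 48 hours to a low (5 mM) or a high (25 mM) concentration of glucose. The groups at 5 mM were the reference for those at 25 mM. Each of the 4 groups had 4 replicates, 16 samples in all. According to the study's methods, the cells were conditioned in low glucose and then treated without serum, and the lines were otherwise grown in different media, DMEM for MDA-MB-231 and RPMI for MDA-MB-468, so that line and medium history cannot be told apart. Whether these controls held mannitol to balance osmolarity was not stated, each line is one line from a repository, and no source says that replicates were separate cultures, so a p-value measures only the spread between these samples.

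The libraries held between 14094597 and 24425916 reads on genes. VIM, a mesenchymal filament, lay between 5247 and 5694 CPM (reads scaled to a common library size) in MDA-MB-231 and between 1.001 and 2.19 CPM in MDA-MB-468. CDH1, the epithelial cadherin, lay between 0.246 and 0.625 CPM in MDA-MB-231 and between 123 and 135 CPM in MDA-MB-468. Likewise, ZEB1 was higher in MDA-MB-231, and EPCAM and EGFR were higher in MDA-MB-468. CD44, also listed as mesenchymal, went the other way, with 928 to 1068 CPM in MDA-MB-231 and 1490 to 1666 CPM in MDA-MB-468. The epithelial keratins KRT8 and KRT19 reached 575 to 746 CPM in MDA-MB-231 and 1552 to 3052 CPM in MDA-MB-468. COL1A1, a fibroblast marker, lay between 15.0 and 21.7 CPM over all libraries. Of the other fibroblast markers, LUM lay between 2.99 and 4.88 CPM in MDA-MB-231 and did not exceed 0.052 CPM in MDA-MB-468. DCN did not exceed 0.0618 CPM in any library. ESR1, the estrogen receptor gene, did not exceed 0.170 CPM in MDA-MB-231, while the libraries of MDA-MB-468 held 2.41 to 4.41 CPM. The leukocyte marker PTPRC stayed below 1 CPM in every library. CD68, also listed as a leukocyte marker, went the other way in MDA-MB-231, with 122 to 137 CPM. In MDA-MB-468 CD68 lay between 1.10 and 2.41 CPM. ARRDC4, a gene that glucose is known to induce, lay between 0.567 and 1.49 CPM in low and between 1.25 and 2.80 CPM in high glucose in MDA-MB-231, where the groups overlapped. In MDA-MB-468 it lay between 2.76 and 3.78 CPM in low and between 0.993 and 1.45 CPM in high glucose, without overlap and with the lower values in high glucose.

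Coordinates of the genes are given on GRCh37 (hg19). GFPT1 (ENSG00000198380) is at chr2:69546912-69614382 and GFPT2 (ENSG00000131459) at chr5:179727698-179780336, both on the minus strand. GNPNAT1 (ENSG00000100522) is at chr14:53241911-53258386 and PGM3 (ENSG00000013375) at chr6:83857043-83903655, also on the minus strand, while UAP1 (ENSG00000117143) is at chr1:162531512-162571030 on the plus strand. NAGK (ENSG00000124357) is at chr2:71291474-71306938 and OGT (ENSG00000147162) at chrX:70752937-70795742, both on the plus strand, and OGA (ENSG00000198408) is at chr10:103544200-103578222 on the minus strand. All are protein-coding genes, and the values are sums over the reads of each gene.

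GFPT1 is known as a target of XBP1, the transcription factor of the unfolded protein response, and the promoters were read for its motif. RefSeq gives 12 promoter windows for the 8 genes, each from 250 bases before to 50 bases after a transcription start (build GRCh38.p14). The core of the XBP1 motif, GCCACGTC on either strand, was present in a window of 3 of the 8 genes, against 1.26% of 27305 genes and 1.03% of 35116 windows. The motifs were chosen after the promoters had been seen, and a match is a run of letters and not a bound site. Each stretch of 30 bases is shown 5′ to 3′ on the gene's own strand with the core in capitals, because these are the promoters of 3 of the 5 synthesis genes. The core begins 181 bases before the start of GFPT1 (chr2:69387390-69387419, minus strand), 9 bases before that of PGM3 (chr6:83193256-83193285, minus strand) and at base 27 after that of GNPNAT1 (chr14:52791563-52791592, minus strand).
GFPT1: cacgagccactGCCACGTCgccgccgccag
PGM3: agccacgcaggGCCACGTCtgcggttctga
GNPNAT1: gcgttggcgctGCCACGTCtgggccgcggt
The 3 stretches share the 8 letters of the core and the same orientation relative to the gene. Those letters contain the reverse complement of ACGTG, so the hits overlap with that shorter motif, which UAP1 carries as well and which 21.4% of all windows hold. None of the 8 genes had CACGTG (the E-box, in 7.26% of windows), TGATGCAA (the amino acid response core, in 0.866%), TGACGTCA (the cyclic AMP element, in 1.85%) or the endoplasmic reticulum stress element (in 0.0769%) in these windows.

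Levels between genes were compared as normalized reads per kilobase of the canonical transcript, with the SD over 4 samples. OGT was the highest of the 8 genes in all 4 groups and GFPT2 the lowest. In MDA-MB-231 at 5 mM glucose the level per kilobase fell from 633 ± 33.4 for OGT to 491 ± 17.6 for GFPT1, 473 ± 25.6 for UAP1, 436 ± 20.3 for OGA, 383 ± 21.8 for NAGK, 314 ± 16.01 for GNPNAT1, 189.9 ± 12.3 for PGM3 and 175 ± 2.19 for GFPT2. The ranges of GFPT1 and UAP1 overlapped there, and so did those of UAP1 and OGA. At 25 mM the order in this line was OGT, GFPT1, OGA, UAP1, NAGK, GNPNAT1, PGM3 and GFPT2, and OGT (629 ± 28.1) overlapped with GFPT1 (575 ± 13.2) while UAP1 (436 ± 3.81) overlapped with NAGK (430.5 ± 8.19). GFPT1 thus stood second among the 8 genes in this line at both concentrations.

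In MDA-MB-468 at 5 mM glucose, OGT was at 422 ± 18.9 normalized reads per kilobase, NAGK at 386 ± 13.0 and OGA at 376 ± 14.1, and these neighbours overlapped. They were followed by GNPNAT1 (313 ± 19.8), GFPT1 (248.7 ± 10.5), PGM3 (210.0 ± 6.76), UAP1 (172 ± 5.54) and GFPT2 (29.7 ± 1.12), with no overlap between neighbours. At 25 mM UAP1 (229.5 ± 14.7) stood above PGM3 (208 ± 5.29) and overlapped with GFPT1 (238.5 ± 18.04), and GFPT2 was at 13.9 ± 3.57. Ranked among all genes detected in the group, OGT lay above 87.9% of genes in low-glucose MDA-MB-231 and above 83.3% in low-glucose MDA-MB-468. GFPT2 lay above 64.5% of genes in the first group and above 33.8% in the second.

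**Figure D1:**
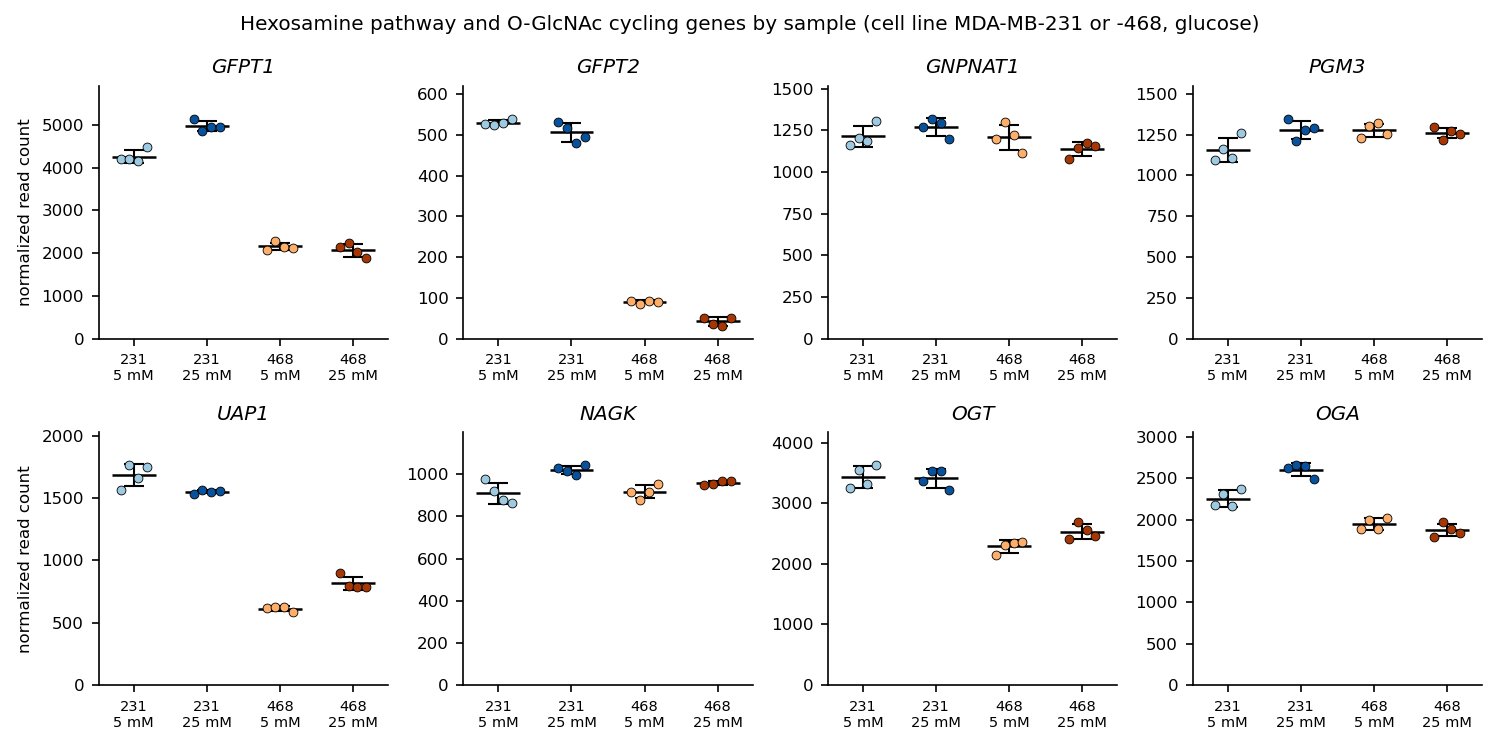
Normalized read count (vertical axis, from 0) of each of the 8 genes in each of the 16 samples, by cell line and glucose. Points are samples, the wide line is the mean and the bars are the SD over 4 samples; the groups of GFPT1, NAGK and OGA (higher) and UAP1 (lower in high glucose) do not overlap in MDA-MB-231, and those of GFPT2, UAP1 and OGT do not in MDA-MB-468.

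In MDA-MB-231, 4 of the 8 genes (50%) were higher in high glucose and 0 lower, at an adjusted p under 0.05 in limma. At an unadjusted p under 0.05, 1 gene (UAP1) was lower, and edgeR and DESeq2 each called 4 higher and 0 lower. Of all 14884 genes tested in this line, 15.1% passed the threshold, 5.71% as higher and 9.37% as lower. The genes that rose were GFPT1 at the entry of the pathway, PGM3 in its middle, NAGK in the salvage route and OGA, which removes O-GlcNAc. Their changes lay between 1.11-fold and 1.17-fold. The median log2 fold change over the 8 genes was 0.11, beside 0.0017 over all genes tested.

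For GFPT1 in MDA-MB-231, replicates 1 to 4 gave normalized read counts of 4197, 4196, 4148 and 4483 in low glucose and 5138, 4865, 4955 and 4956 in high glucose. Every high-glucose sample lay above every low-glucose one, and replicate 4 was the highest of the low group. The means were 4256 ± 153 and 4978 ± 114 (SD, n = 4), a rise of 1.17-fold or 0.23 ± 0.032 (SE) on the log2(value + 1) scale, with an adjusted p of 9.54e-05. The call held under all 23 alternative settings, with a log2 fold change between 0.21 and 0.28. In a bulk sample, a change in how many cells carry a transcript and a change in its amount per cell cannot be told apart.

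GFPT2, the other form of the same enzyme, gave 527, 524, 529.7 and 539.8 normalized reads in low-glucose MDA-MB-231 and 533, 519, 481 and 496 in high glucose. The ranges overlapped, and the log2 fold change was -0.065 with a 95% interval from -0.17 to 0.042. GNPNAT1, which acetylates glucosamine 6-phosphate, had means of 1215 ± 61.9 and 1271 ± 52.2 with overlapping ranges and a log2 fold change of 0.066 (95% interval -0.028 to 0.16).

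PGM3, the phosphomutase of the pathway, gave 1096, 1159.6, 1104 and 1258 normalized reads in low-glucose MDA-MB-231 and 1347, 1213, 1277 and 1289.7 in high glucose. The highest low-glucose sample lay above the lowest high-glucose one, so the groups overlapped. PGM3 rose by 0.15 ± 0.048 on the log2 scale with an adjusted p of 0.0417. This call had the highest adjusted p of the 4 and was lost in 9 of 23 alternatives, 6 of them the omission of low-glucose replicate 1, 2 or 3 or high-glucose replicate 1, 3 or 4, after which the adjusted p lay between 0.0750 and 0.135.

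UAP1 makes UDP-GlcNAc itself. It gave 1566, 1761, 1659 and 1751 normalized reads in low-glucose MDA-MB-231 and 1533, 1565, 1552 and 1554 in high glucose, so the groups did not overlap, by 1 normalized read between 1566 and 1565. The log2 fold change was -0.12 ± 0.040 with an adjusted p of 0.0605, which did not pass the threshold. Without low-glucose replicate 1, the lowest of its group, the adjusted p was 0.0192 and the log2 fold change -0.15. UAP1 also passed with a filter of 5 CPM in 2 samples (adjusted p = 0.0447) and with a GC content correction (adjusted p = 0.0488).

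NAGK, which returns GlcNAc freed in lysosomes to the pathway, gave 977, 918, 876 and 863 normalized reads in low-glucose MDA-MB-231 and 1028, 1017, 996 and 1041 in high glucose. Every high-glucose sample lay above every low-glucose one. NAGK rose 1.12-fold, by 0.17 ± 0.045 on the log2 scale, with an adjusted p of 0.0177. The adjusted p was 0.0508 without low-glucose replicate 3 and 0.0524 without high-glucose replicate 4.

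OGT and OGA, the pair that sets O-GlcNAc turnover, parted in MDA-MB-231. OGT gave 3251, 3557, 3321 and 3628 normalized reads in low glucose and 3368, 3543, 3534 and 3221 in high glucose, with a log2 fold change of -0.0092 and a 95% interval from -0.095 to 0.077. OGA gave 2177, 2311, 2161 and 2378 in low glucose and 2632, 2658, 2646 and 2496 in high glucose. The OGT groups overlapped throughout, and the OGA groups did not overlap. OGA rose 1.16-fold, by 0.21 ± 0.038 on the log2 scale with an adjusted p of 0.00101, and the call held under all 23 alternatives.

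In the same line, 4 of the 8 genes had glucose groups that did not overlap, against 18.7% of all genes tested, 7.63% higher and 11.1% lower in high glucose. These were GFPT1, NAGK and OGA, which passed the test, and UAP1, which did not.

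In MDA-MB-468, GFPT2 fell and UAP1 and OGT rose in high glucose, so that 3 of the 8 genes (37.5%) passed the threshold. This line responded far more widely, with 47.6% of the 15757 genes tested past the threshold, 24.9% as higher and 22.7% as lower. With 8 genes, the share is too coarse to be told apart from that background. The median absolute log2 fold change of the 8 genes was 0.076, beside 0.21 over all genes tested. The same 3 genes had groups that did not overlap, against 42.5% of all genes, 22.2% higher and 20.4% lower in high glucose.

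GFPT2 showed the largest change of the 8 genes in either line. Its normalized read counts were 91.7, 85.2, 92.8 and 90.7 in low-glucose MDA-MB-468 and 51.5, 35.0, 30.9 and 51.4 in high glucose. All high-glucose samples lay below all low-glucose ones, and replicates 2 and 3 lay below replicates 1 and 4. The means of 90.1 ± 3.40 and 42.2 ± 10.8 rest on few reads, between 77 and 116 per library in low and between 27 and 61 in high glucose. The gene was 2.16-fold lower, a log2 fold change of -1.11 ± 0.17 with an adjusted p of 4.18e-05, and 96.4% of genes tested in the line had a smaller absolute change. Across 23 alternatives the log2 fold change lay between -1.22 and -0.98 and the call held in each.

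GFPT1, the form with the higher level, gave 2079.8, 2287, 2136 and 2119 normalized reads in low-glucose MDA-MB-468 and 2133, 2240.5, 2017 and 1876 in high glucose. The groups overlapped, and the log2 fold change was -0.063 with a 95% interval from -0.16 to 0.039.

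UAP1 gave 617, 625, 628 and 585 normalized reads in low-glucose MDA-MB-468 and 895, 795, 787 and 789.8 in high glucose. Every high-glucose sample lay above every low-glucose one, with replicate 1 well above the other 3. UAP1 rose 1.33-fold, by 0.41 ± 0.051 on the log2 scale with an adjusted p of 5.06e-06. Without replicate 1 of the high group the log2 fold change was 0.37.

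OGT gave 2141, 2317, 2342 and 2367 normalized reads in low-glucose MDA-MB-468 and 2421, 2693, 2559 and 2455 in high glucose. The groups did not overlap, although the gap between 2367 and 2421 was small beside the spread within each group. OGT rose 1.10-fold, by 0.14 ± 0.041 on the log2 scale with an adjusted p of 0.00815. The call was lost in 1 of 23 alternatives, a gene-wise linear model without moderation (adjusted p = 0.0563).

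The other 4 genes did not pass the test in MDA-MB-468, and their groups overlapped. OGA had means of 1946 ± 72.7 and 1874 ± 74.5 normalized reads and a log2 fold change of -0.055 (95% interval -0.14 to 0.027). NAGK had means of 916 ± 30.9 and 959 ± 9.47 and a log2 fold change of 0.066 (95% interval -0.018 to 0.15). PGM3 had means of 1277 ± 41.1 and 1262 ± 32.2 and a log2 fold change of -0.017 (95% interval -0.098 to 0.064). GNPNAT1 had a log2 fold change of -0.086 with an adjusted p of 0.148, and it passed the threshold, at 0.0390, once low-glucose replicate 4, the lowest of its group, was left out.

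**Figure D2:**
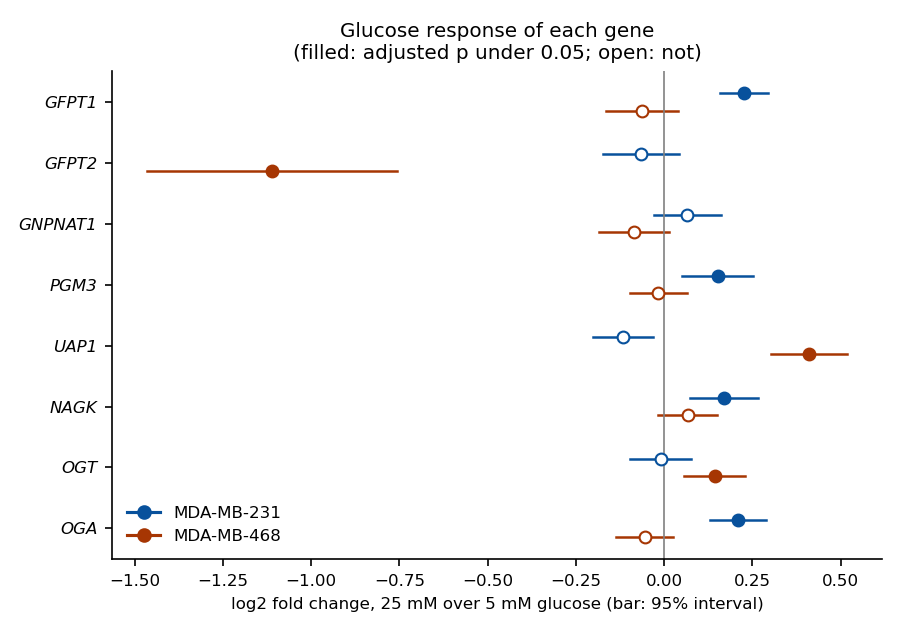
Log2 fold change of high over low glucose (horizontal axis) for each of the 8 genes, with 95% intervals, in MDA-MB-231 (blue) and MDA-MB-468 (red). Filled points passed an adjusted p of 0.05; GFPT1, PGM3, NAGK and OGA are filled and positive in MDA-MB-231, and UAP1 and OGT are filled and positive and GFPT2 filled and negative at -1.11 in MDA-MB-468.

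By limma, 0 of the 8 genes passed the test in both lines, beside 9.33% of all 13573 genes tested in both. At an unadjusted p under 0.05 UAP1 passed in both, with opposite signs, and edgeR and DESeq2 also gave 0. In MDA-MB-231 UAP1 passed as lower in 3 of 23 alternatives, while its rise in MDA-MB-468 held in all 23. The difference of the glucose response, MDA-MB-468 minus MDA-MB-231, was tested in a model over all 16 samples, and 5 of the 8 genes (62.5%) passed, against 30.9% of 17115 genes tested. The difference was negative for GFPT1, GFPT2, PGM3 and OGA, a direction called for 13.9% of all genes, and positive for UAP1, a direction called for 17.0%. GFPT1 differed by -0.29 ± 0.064 on the log2 scale (adjusted p = 0.00230) and OGA by -0.26 ± 0.054 (adjusted p = 0.00123). Both rose in MDA-MB-231 and had negative values that did not pass the test in MDA-MB-468.

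GFPT2 differed by -1.05 ± 0.18 (adjusted p = 0.000239). UAP1 differed by 0.53 ± 0.063 (adjusted p = 7.18e-06), the responses being -0.12 for MDA-MB-231 and 0.41 for MDA-MB-468. The calls of GFPT1, GFPT2, UAP1 and OGA held under all 30 alternatives of this comparison. PGM3 differed by -0.17 ± 0.061 with an adjusted p of 0.0460, a call that was lost in 17 of the 30, with adjusted p-values up to 0.101. Of these, 12 were the omission of 1 library: low-glucose replicate 1, 2 or 3 or high-glucose replicate 1, 3 or 4 of MDA-MB-231, or low- or high-glucose replicate 2, 3 or 4 of MDA-MB-468.

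For OGT, GNPNAT1 and NAGK the difference did not pass the threshold. OGT differed by 0.15 with a 95% interval from 0.018 to 0.29 and an adjusted p of 0.0818, and it passed in 6 of 30 alternatives, DESeq2 (0.0477) and the omission of low-glucose MDA-MB-231 replicate 1 (0.0470) among them. GNPNAT1 differed by -0.15 (adjusted p = 0.101) and passed without low-glucose replicate 4 of MDA-MB-231 (0.0373) or without low-glucose replicate 4 of MDA-MB-468 (0.0328). NAGK differed by -0.10 (adjusted p = 0.160) and passed without low-glucose replicate 1 of MDA-MB-231 (0.0353).

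Because OGT and OGA act against each other, their ratio per kilobase is shown as a description, with no test. The ratio in low-glucose MDA-MB-231 was 1.42, 1.47, 1.46 and 1.45 in replicates 1 to 4, and in high glucose it was 1.22, 1.27, 1.27 and 1.23. In MDA-MB-468 it was 1.08, 1.10, 1.18 and 1.12 in low glucose and 1.28, 1.30, 1.29 and 1.27 in high glucose. The ratio was lower in high glucose in the first line and higher in the second, with no overlap between glucose groups in either. At 25 mM the means of the lines, 1.25 ± 0.027 and 1.29 ± 0.013, stood closer together than at 5 mM, where they were 1.45 ± 0.020 and 1.12 ± 0.044.

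GFPT2 made up a minor share of the summed GFPT1 and GFPT2 level per kilobase in every sample. Its share was 26.3% ± 0.479 in low and 22.5% ± 0.716 in high glucose in MDA-MB-231, and 10.7% ± 0.724 and 5.54% ± 1.55 in MDA-MB-468. In both lines the samples in high glucose lay below those in low glucose, by way of a higher GFPT1 in the first line and a lower GFPT2 in the second. GNPNAT1, the next enzyme, stood at 0.471 ± 0.0117 of that sum in low-glucose MDA-MB-231 and at 1.12 ± 0.0491 in low-glucose MDA-MB-468.

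**Figure D3:**
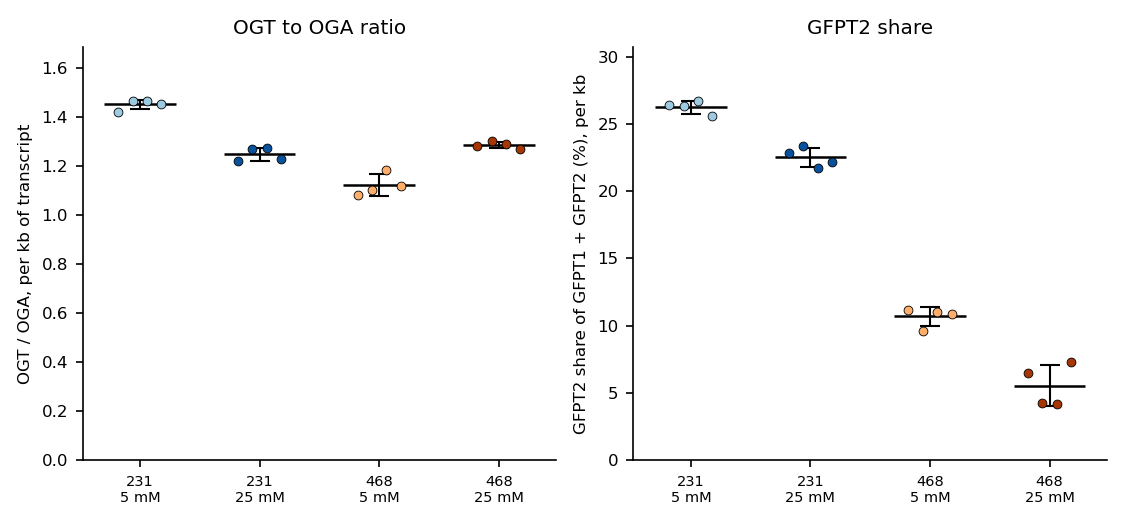
Ratio of OGT to OGA per kilobase of transcript (left) and share of GFPT2 in the sum of GFPT1 and GFPT2 per kilobase, in percent (right), by line and glucose, both axes from 0. Points are samples, the line and bars are the mean and SD over 4 samples; the ratio is lower at 25 mM in MDA-MB-231 and higher in MDA-MB-468, and the GFPT2 share is lower at 25 mM in both.

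Between the lines at 5 mM glucose, 6 of the 8 genes (75.0%) differed, against 85.4% of 17115 genes (45.0% as higher and 40.4% as lower in MDA-MB-468). MDA-MB-468 had less of GFPT2 (log2 difference -2.54 ± 0.13), UAP1 (-1.45 ± 0.045), GFPT1 (-0.98 ± 0.045), OGT (-0.59 ± 0.045) and OGA (-0.21 ± 0.038), with adjusted p-values of 5.85e-05 or lower. As linear folds, GFPT2 was 5.84-fold lower, UAP1 2.74-fold lower and GFPT1 1.97-fold lower in MDA-MB-468. PGM3 was higher by 0.15 ± 0.043 on the log2 scale (adjusted p = 0.00469), but this turned to -0.021 and did not pass with a correction for GC content. GNPNAT1 (-0.0082, 95% interval -0.11 to 0.093) and NAGK (0.013, -0.067 to 0.092) did not differ past the threshold, NAGK turning to -0.098 with a correction for transcript length and to 0.10 with quantile rescaling, past the threshold in each. GNPNAT1 was at -0.18 and passed with the GC content correction (adjusted p = 0.000403). The OGA difference was -0.066 and did not pass with quantile rescaling.

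At 25 mM glucose, 7 of the 8 genes (87.5%) were lower in MDA-MB-468, against 85.2% of all genes (44.6% as higher and 40.6% as lower). GFPT2 was 12.0-fold lower (log2 difference -3.59 ± 0.13), GFPT1 2.41-fold lower (-1.27 ± 0.045) and UAP1 1.90-fold lower (-0.93 ± 0.045). OGA (-0.48 ± 0.038) and OGT (-0.43 ± 0.045) followed. The differences of GNPNAT1 (-0.16 ± 0.048) and NAGK (-0.090 ± 0.038) were small and did not pass with quantile rescaling, and that of NAGK also failed, at adjusted p-values up to 0.0826, when high-glucose replicate 1, 2 or 4 of MDA-MB-231 or high-glucose replicate 1 or 2 of MDA-MB-468 was left out. PGM3 was the gene whose levels stood closest, at 1282 ± 55.0 and 1262 ± 32.2 normalized reads (log2 difference -0.022, 95% interval -0.11 to 0.070), but with the GC content correction its difference was -0.14 and passed (adjusted p = 0.00246).

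The pathway is set in a wider network of enzymes that feed it or use UDP-GlcNAc, partners of OGT and factors that act on GFPT1. A list of 52 such genes was written down, of which 51 were in the table and 49 were tested in each line. In MDA-MB-231, 11 of the 49 passed the threshold, 6 higher and 5 lower, beside the 15.1% of all genes. Their median log2 fold change was 0.0069. In MDA-MB-468, 30 of the 49 passed, 15 higher and 15 lower, beside 47.6% of all genes, with a median of -0.042. Most genes named below are those with the largest called changes. The others complete counts of 5 or fewer and were picked after their values had been seen.

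Among the enzymes that bring hexose and glutamine to the pathway, HK1, a hexokinase, rose in MDA-MB-468 from 3182 ± 42.4 to 4242 ± 90.1 normalized reads, by 0.41 ± 0.029 on the log2 scale (adjusted p = 7.79e-09). GLUL, which makes glutamine, rose by 0.38 in that line, while the hexokinase HK2 fell by 0.13. The 5 listed genes of this group had 4 calls in MDA-MB-468, 2 higher and 2 lower, 1 of the 4 not named here. Of all genes in that line, 47.6% passed. In MDA-MB-231 the log2 fold changes of HK1, GLUL and HK2 were -0.022, 0.049 and -0.071, and they did not pass the test.

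Among 6 genes of amino sugar turnover, 3 passed in each line, beside 15.1% of all genes in MDA-MB-231 and 47.6% in the other line. In MDA-MB-231 all 3 were higher: GNPDA1, which returns glucosamine 6-phosphate to glycolysis, by 0.26 ± 0.039 (adjusted p = 0.000177), UAP1L1, a relative of UAP1, by 0.25 ± 0.046 (adjusted p = 0.00118), and the lysosomal hexosaminidase subunit HEXA by 0.12 ± 0.035 (adjusted p = 0.0286). The HEXA call was lost without low-glucose replicate 1 or 2 or high-glucose replicate 1, 3 or 4, and that of UAP1L1 when the line was fitted with all 16 samples. In MDA-MB-468, UAP1L1 rose by 0.65 ± 0.16 (adjusted p = 0.00392) from a low level of 37.4 ± 3.01 normalized reads, whereas GNPDA2 fell by 0.36 ± 0.071 and HEXA fell by 0.20 ± 0.039. HEXA therefore passed in both lines with opposite signs, and its difference between lines was -0.32 ± 0.044 (adjusted p = 2.99e-05).

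Sialic acid is built from UDP-GlcNAc. Of 6 listed genes of sialic acid and epimer steps, 5 passed in MDA-MB-468, 4 higher and 1 lower, 1 of the 5 not named here. Of all genes in that line, 47.6% passed, 24.9% higher and 22.7% lower. SLC35A1, the carrier of CMP-sialic acid into the Golgi, rose from 335 ± 31.2 to 494 ± 10.6 normalized reads (0.56 ± 0.065, adjusted p = 2.43e-06). GNE, the first enzyme, rose by 0.26 and NANS by 0.30, while the phosphatase NANP fell by 0.26. In MDA-MB-231 these genes did not pass, with a log2 fold change of 0.19 for SLC35A1 (adjusted p = 0.286). The UDP-sugar carriers SLC35A3 and SLC35D2 also rose in MDA-MB-468, by 0.28 and 0.30, which made 2 of 3 genes of the transport group, beside 24.9% of all genes called higher. In MDA-MB-231 limma called 0 of the 3, with 0 at an unadjusted p under 0.05 and 0 called by edgeR or DESeq2.

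Of 9 N-glycan enzymes that spend UDP-GlcNAc, 7 passed in MDA-MB-468, 2 higher and 5 lower, beside 47.6% of all genes in that line, 24.9% higher and 22.7% lower. ALG13 and ALG14, the paired subunits that add the second GlcNAc to the lipid-linked precursor, both fell, by 0.61 ± 0.041 and 0.67 ± 0.079 on the log2 scale, and DPAGT1, which adds the first, fell by 0.13. ALG13 gave 1087 ± 33.9 and 712 ± 17.2 normalized reads and ALG14 gave 360 ± 24.6 and 226 ± 23.4. The branching enzymes MGAT5 and MGAT4B rose, by 0.48 ± 0.067 and 0.45 ± 0.035, while MGAT4A fell by 0.18 and MGAT3, which adds the bisecting GlcNAc, fell by 1.33 ± 0.33 from 26.9 ± 3.11 to 11.1 ± 5.73 normalized reads. In MDA-MB-231 limma and edgeR called 1 of 8 and DESeq2 called 2, beside 15.1% of all genes by limma. The limma call was MGAT2, higher by 0.11 ± 0.035 (adjusted p = 0.0409), a call that 10 of 23 alternatives lost, 6 of them by leaving out low-glucose replicate 1, 2 or 3 or high-glucose replicate 1, 2 or 3.

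Of the enzymes that place GlcNAc in hyaluronan, heparan sulfate, lipid anchors and O-fucose glycans, 3 of 9 passed in MDA-MB-231, all lower, a direction called for 9.37% of all genes. In MDA-MB-468 3 of 8 passed, beside 47.6% of all genes. HAS2, a hyaluronan synthase, fell in MDA-MB-231 from 329 ± 40.4 to 214 ± 22.7 normalized reads, by 0.62 ± 0.092 on the log2 scale (adjusted p = 0.000160), and did not pass when fitted with all 16 samples (adjusted p = 0.0619). Its groups did not overlap in that line, and in MDA-MB-468 it had 0 or 1 read per library and was not tested. HAS3 fell in MDA-MB-468 by 0.93 ± 0.32 (adjusted p = 0.0246) on between 5 and 29 reads per library, a call lost without low-glucose replicate 3 or 4 or high-glucose replicate 3. The heparan sulfate polymerase EXT1 fell in both lines, by 0.22 ± 0.028 for MDA-MB-231 and by 0.52 ± 0.053 for MDA-MB-468. Its partner EXT2 fell by 0.14 ± 0.033 in the first and rose by 0.23 ± 0.030 in the second, and its fall in MDA-MB-231 did not pass with a correction for transcript length (adjusted p = 0.108).

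Among 9 partners and substrates of OGT, MDA-MB-231 had 2 that were lower and MDA-MB-468 had 3, and 0 were higher by limma, edgeR or DESeq2 in either line (at an unadjusted p under 0.05, 2 were higher in MDA-MB-231, TET1 and TRAK2, and 0 in MDA-MB-468). Of all genes, 9.37% were called lower and 5.71% higher in MDA-MB-231, and 22.7% lower and 24.9% higher in MDA-MB-468. HCFC1, a chromatin cofactor that OGT glycosylates and cleaves, fell by 0.13 ± 0.040 in MDA-MB-231 (adjusted p = 0.0396) and by 0.30 ± 0.032 in MDA-MB-468 (adjusted p = 1.11e-06). The first of these was lost in 10 of 23 alternatives, 5 of them the omission of low-glucose replicate 1 or 3 or high-glucose replicate 2, 3 or 4, and the second held in all. TET3 fell by 0.24 and BAP1 by 0.12 in MDA-MB-468. PPP1R12A, a myosin phosphatase subunit that binds OGT, fell by 0.11 ± 0.035 in MDA-MB-231 with an adjusted p of 0.0436, a call lost in 18 of 23 alternatives, the omission of each of the 8 libraries included.

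XBP1, ATF4 and ATF6 encode factors of the stress responses that are known to act on hexosamine genes. ATF4 rose in both lines, by 0.21 ± 0.029 (adjusted p = 6.63e-05) to 7893 ± 72.5 normalized reads in MDA-MB-231. Its rise in MDA-MB-468 was 0.23 ± 0.028 (adjusted p = 4.50e-06), from 13344 ± 243 to 15608 ± 443. XBP1 rose in both as well, by 0.19 ± 0.034 (adjusted p = 0.00101) and by 0.34 ± 0.031 (adjusted p = 1.58e-07). Gene-level counts do not separate the spliced form of its transcript, which encodes the active factor, from the unspliced one. ATF6 rose in MDA-MB-468 from 511 ± 25.5 to 998 ± 48.2 normalized reads, by 0.97 ± 0.051 (adjusted p = 3.52e-10), and had a log2 fold change of -0.031 (95% interval -0.11 to 0.046) in MDA-MB-231. The difference between lines was 0.996 ± 0.059 for ATF6 (adjusted p = 3.64e-09), 0.15 ± 0.041 for XBP1 (adjusted p = 0.00784) and 0.016 ± 0.035 for ATF4 (adjusted p = 0.776). Of the 3 genes with the XBP1 core in their promoter, GFPT1 and PGM3 were called higher in MDA-MB-231, as were 5.71% of all genes. The PGM3 call was lost in 9 of 23 alternatives. In MDA-MB-468 the 3 did not pass the threshold, which 47.6% of all genes passed. Whether XBP1 acts on these genes in these samples was not tested.

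Of the 48 listed genes tested in both lines, 7 passed in both, beside 9.33% of all 13573 genes tested in both. ATF4, XBP1 and UAP1L1 were higher in both lines and EXT1 and HCFC1 lower in both, while HEXA and EXT2 passed in opposite directions. Over all genes, 4.88% passed in both with equal signs and 4.46% with unequal signs.

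**Figure D4:**
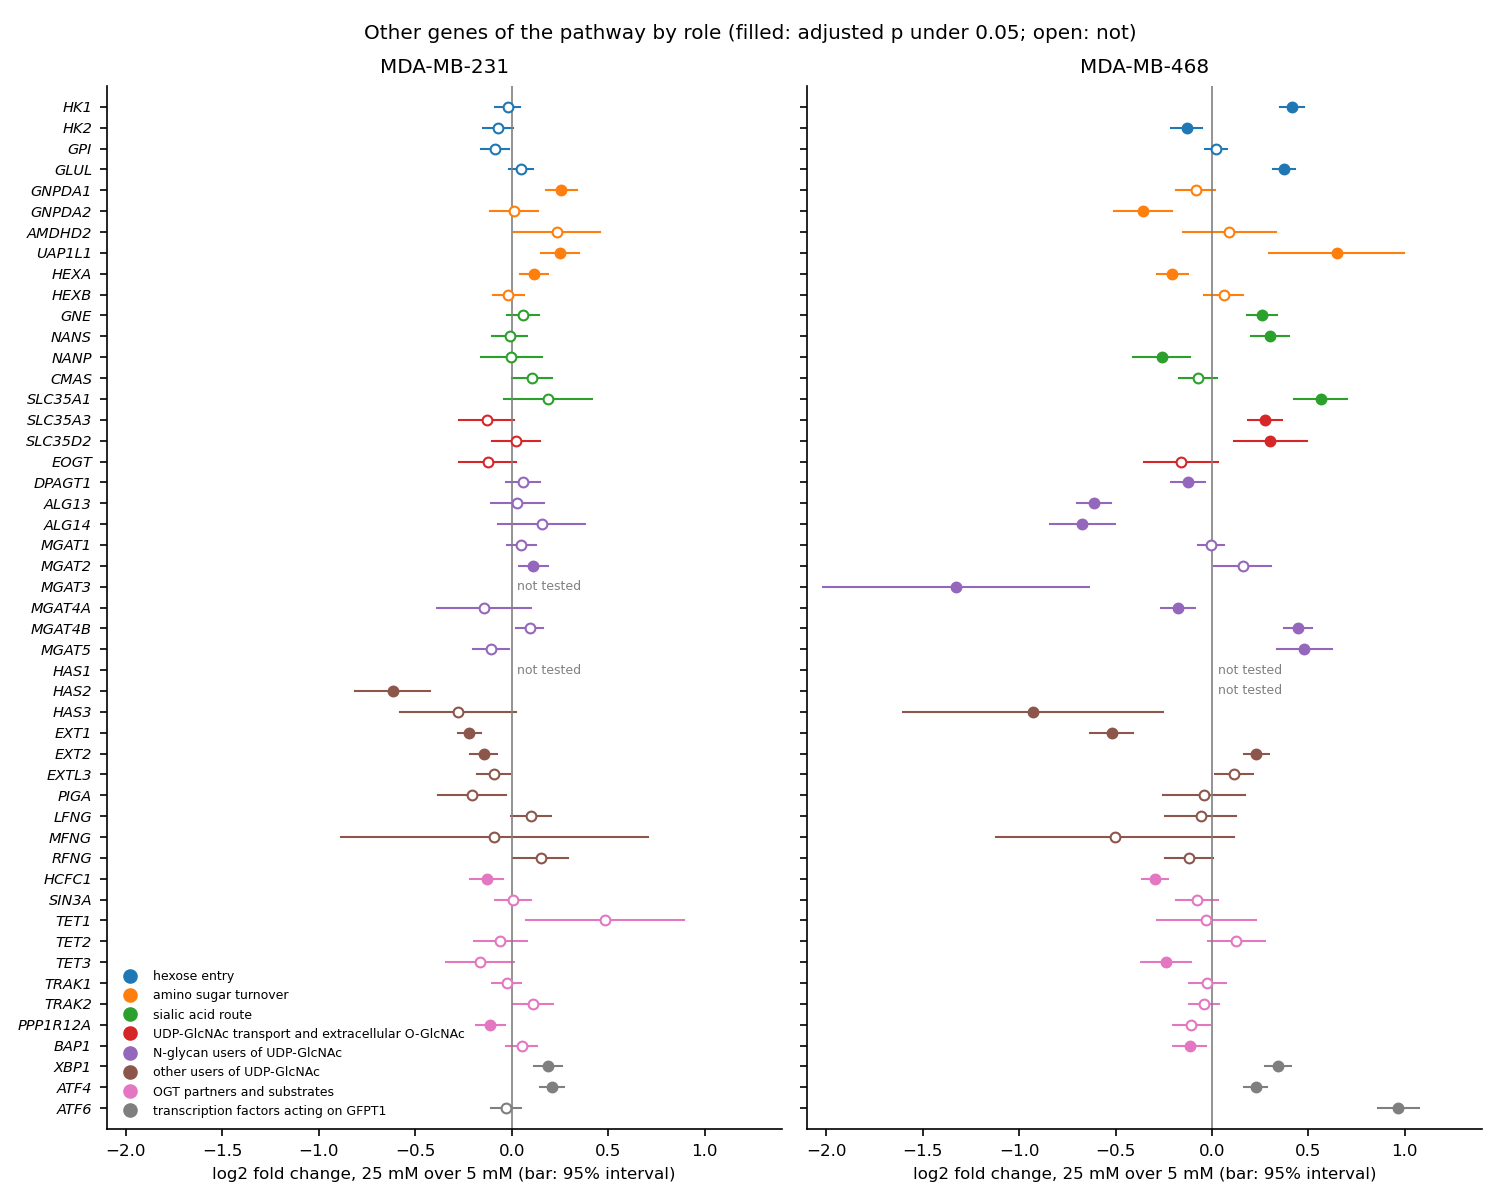
Log2 fold change of high over low glucose (horizontal axis) with 95% intervals for genes of the wider list in MDA-MB-231 (left) and MDA-MB-468 (right), coloured by role. Filled points passed an adjusted p of 0.05, 11 of 47 in the left panel and 28 of 47 in the right; genes marked as not tested had too few reads in that line.

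The genes whose pattern over the 16 samples was most like that of 4 of the 8 were found by Pearson's r of log2 values centered within each line, among genes whose mean reached 5 CPM in both lines. These values are a description, since the samples share the glucose contrast and the normalization. GFPT1 was most like OCLN (r = 0.91), TRIM2 (0.89) and ATP6V0D2 (0.89). OGA was most like ATP6V0D2 (0.91), CALU (0.88) and a gene listed as ENSG00000233137 (0.87), so that ATP6V0D2 stood near both genes. OGT was most like GPCPD1 (0.87), ABHD5 (0.87) and KHDC4 (0.86), and GFPT2 was most like TP53INP2 (0.94), PRDM4 (0.94) and R3HDM2 (0.94).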

How the data were processed

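RNA of 16 cell line samples was sequenced by the authors. The deposited table holds a normalized signal per Ensembl gene, in which the authors had scaled the reads of each library by its own size factor. All of the values (100%) were whole multiples of the value of 1 read, within 0.001 of a read, so the whole reads per gene were recovered. The labels name build hg38, while the study's methods name hg19, with TopHat, DESeq2 and edgeR among the tools; the table itself carries no coordinates. The program that counted reads, its use of strand and its treatment of reads that match several genes are not given in the sources used here, so reads of overlapping genes cannot be told apart. Only genes that reached 0.5 CPM in 2 samples of a fit were tested, after the study's methods.

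Symbols were matched for 16633 of the 18332 IDs and a transcript length for 17418, from a GENCODE annotation lifted to GRCh37. The sample labels gave each group and replicate number. Glucose was tested in each line over its 8 samples with limma 3.58.1 in R 4.3.3 (lmFit and eBayes with trend) on log2(value + 1), two-sided, with Benjamini-Hochberg adjustment over all genes tested and a threshold of 0.05. A fold change on this scale understates the change of low genes. The difference between lines and the levels between lines came from a limma model of 4 group means over 16 samples. Levels and ratios are mean ± SD over 4 samples, while a ± after a log2 fold change or log2 difference is its SE from the limma fit. Intervals of fold changes are at 95%. Recovered reads per library were between 14094597 and 24425916, and 3 reads, the floor, corresponded to between 0.123 and 0.213 CPM, which covers counting error only. Between replicates the chi-square per gene was 2.02 to 4.97, above counting error.

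Of the wider list, 2 genes count in its totals and are not reported here by name. The 8 genes, the list of 52 further genes and the tests were chosen with earlier results of these data known. Besides the 8, the text names up to 6 of the largest called rises and falls of the list per line, the genes called in both lines, XBP1, ATF4 and ATF6, and the 3 most alike genes for GFPT1, GFPT2, OGT and OGA. Further listed genes, such as GLUL, HK2, GNE and TET3, were named to complete counts after their values had been seen. Those further genes were not followed one by one under the alternatives. Cell type markers were ESR1 and PGR, VIM, ZEB1, CD44 and SPARC, CDH1, EPCAM, KRT8, KRT19 and EGFR, and those of leukocytes, endothelium and fibroblasts. SPARC was below 1 CPM in every library, CD68 reached 137 CPM in MDA-MB-231, and PGR, CD3E and PECAM1 were not matched by symbol. The alternatives were other pseudocounts, filters and scalings, a linear model without moderation, the replicate number as a block, corrections for transcript length and GC content, edgeR 4.0.16 and DESeq2 1.42.0 on the recovered reads, a fit over 16 samples, and leaving out each library. The steps were tested on simulated data. Promoter windows came from RefSeq (GRCh38.p14).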

Additional observations from a re-analysis of the deposited data

Results flagged for a closer look

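Of 32 groups of 4 samples, 3 held a sample far from the other 3, where chance gives about 1 in 20. GFPT1 in replicate 4 of low-glucose MDA-MB-231 was the highest of its group at 4483 normalized reads, and without it the glucose response was 0.25 on the log2 scale. UAP1 in replicate 1 of high-glucose MDA-MB-468 stood at 895, and without it the response was 0.37. OGA in replicate 4 of high-glucose MDA-MB-231 was the lowest of its group at 2496, and without it the response was 0.23. Each of these calls held without the sample.

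The glucose response differed between the lines for 5 genes by the limma test of the difference, MDA-MB-468 minus MDA-MB-231. It differed by -0.29 on the log2 scale for GFPT1, -1.05 for GFPT2, -0.17 for PGM3, 0.53 for UAP1 and -0.26 for OGA. The causes of these differences were not tested.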

How the results depend on the processing

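Of 1088 values of the 8 genes under an alternative setting, 1031 kept their direction and their side of the threshold, counting the sign only where a value passed in one of the fits. Among the others, 38 lost a call, 16 gained one and 3 turned. For levels between lines, the alternatives included leaving out libraries of the other glucose concentration. Those could change the p-value but not the estimated difference, so they tested little. The 4 genes called in MDA-MB-231 became 2 in a gene-wise linear model without moderation and ranged from 2 to 4 when 1 library was left out, with 2 called without low-glucose replicate 3 and without high-glucose replicate 4. In that model the calls over all genes of the line were 1297 in place of 2245. The 11 listed genes called in that line became 7 with a fit over 16 samples, and 7 with a transcript length correction and the replicate block together. Counts also rose: over the settings that kept every library, 2 to 5 of the 8 genes and 7 to 16 of the listed genes were called there.

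The turned values are all of levels between lines at 5 mM glucose. PGM3 was at -0.021 (adjusted p = 0.599) with a GC content correction, and NAGK at -0.098 with a transcript length correction (adjusted p = 0.0168), also with the replicate block (adjusted p = 0.0253). The cause was not tested. Quantile rescaling gave 1027 higher and 1114 lower calls over all genes in MDA-MB-231, against 850 and 1395.

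The replicate numbers were not used to pair the samples in the main fits. The correlation of same-numbered deviations averaged -0.0208 for MDA-MB-231 and 0.0247 for MDA-MB-468. Differently numbered samples were not compared, so these values cannot show whether same-numbered samples shared a day or batch. With the replicate number as a block, PGM3 lost its call in MDA-MB-231 (adjusted p = 0.0770), which left 3 of the 8 genes there, and the count in MDA-MB-468 was 3. For the difference between lines it was 5, with OGT (0.0467) in place of PGM3 (0.0693). Low levels limit what can be seen of GFPT2 in MDA-MB-468, with 27 to 61 reads per library in high glucose.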

Other observations

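The lines also differed across the wider list, as most genes did. At 5 mM glucose 48 of 50 listed genes passed the limma test between MDA-MB-468 and MDA-MB-231, 21 higher and 27 lower in MDA-MB-468, against 85.4% of all genes. MGAT2, a core N-glycan branching enzyme, was 7.90-fold lower in MDA-MB-468, with means of 332 ± 34.4 and 2621 ± 75.5 normalized reads. UAP1L1 was 23.5-fold lower, at 37.4 ± 3.01 beside 900.4 ± 52.7. ALG14 was 3.46-fold and ALG13 2.41-fold higher in MDA-MB-468. ATF6 was 3.78-fold lower there at 5 mM and 1.90-fold lower at 25 mM, while XBP1 was 1.67-fold and ATF4 1.95-fold higher at 5 mM. HAS2 lay between 279 and 378 normalized reads in low-glucose MDA-MB-231, whereas MGAT3, which had between 25 and 35 reads per library in low-glucose MDA-MB-468, had 0 or 1 read in MDA-MB-231.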
